A study of Mus musculus with 4 samples.

Results

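Nuclear receptors are transcription factors that small lipid-soluble ligands switch on or off, and the PGC1 coactivators and the corepressor RIP140 are proteins that bind them and set how strongly they act. A fixed list of 48 such genes was followed, by gene symbol, across the 4 arrays of a study of mouse SVEC4-10 cells, an endothelial line derived from lymph node vessels and transformed with SV40. Of these, 46 had a probe set with their symbol among the 18193 genes measured, and Nr1h2 and Nr2e3 are not analysed here. The list was not chosen by a threshold on measured levels, though earlier results of these data were known when it was chosen. Where several probe sets read a gene, the brightest on average over the 4 arrays was used, and levels are log2 values.

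Each of 4 groups was read on 1 array. Wild-type cells without any lentivirus gave the untreated array. Cells with an insert-free pLENTI6/Block-iT lentivirus gave the vector array. The other 2 arrays came from cells whose lentivirus expressed a hairpin targeting Mical2 or Mical3, enzymes of a family that oxidises actin filaments. The labels describe selection of the transduced cells with blasticidin, so the vector and hairpin arrays share transduction and selection and the untreated array has neither. The RNA on each array was pooled from 3 biological replicates. The spread between replicates is therefore hidden, and neither a test nor a p-value can be given.

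In place of a test a rule of size was used. A gene passed it when 2 arrays differed by at least 1 on the log2 scale, which is 2-fold, provided that the brighter level reached a floor of 5.41, the table's median. For a hairpin array this had to hold, in 1 direction, against each control array. A rough lower bound on the error comes from genes with more than 1 probe set at or above the floor. Over 5510 such genes the standard deviation of a difference, for 1 probe set, was 0.27 between the vector and untreated arrays. It was 0.34 and 0.25 for the Mical2 hairpin array against the vector and untreated arrays, and 0.37 and 0.29 for the Mical3 hairpin array. Probe sets bind with different strength, so levels are compared between arrays and never between genes.

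Most receptors of this family share a DNA-binding domain with zinc fingers and a pocket for the ligand. Many bind DNA paired with a retinoid X receptor, recruiting corepressors without ligand and coactivators with it. In endothelial cells the family is known for damping inflammation, for control of vessel growth by retinoic acid and oestrogen, and, through COUP-TFII, for venous identity. PGC1-alpha and PGC1-beta link the receptors to mitochondrial gene expression.

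The targeted transcripts did not show the labelled knock-down. The first probe set of Mical2 read 5.33 (untreated), 4.64 (vector), 5.53 (labelled Mical2) and 6.0 (labelled Mical3), and the second read 5.6, 5.14, 5.53 and 6.08. Mical2 was thus no lower on its own hairpin array than on the vector array. Mical3 read 7.39, 7.29, 6.83 and 7.24 in that order, lowest on the array labelled for the other gene. The hairpin arrays are therefore called by their labels. Of 14 endothelial markers 5 were at or above the floor on every array: Kdr, Eng, Esam, Egfl7 and Flt1. The others, Pecam1, Cdh5, Tek, Tie1, Vwf, Erg, Cldn5, Emcn and Robo4, were below it on every array. The summed linear level of those 14 markers lay between 840 and 856 on the 4 arrays. Fibroblast markers differed more. Of 8, Lum and Thy1 were below the floor throughout, and the sum was 49056 on the untreated, 8290 on the vector, 38965 on the Mical2-labelled and 11578 on the Mical3-labelled array. The sum of 6 smooth muscle markers was 13494, 3466, 14697 and 23535 in the same order, with Myh11 and Cnn1 below the floor throughout. Of 6 epithelial markers 3 were below the floor, Cdh1 among them, with sums of 565, 259, 612 and 685. Of 7 leukocyte markers Ptprc, Adgre1 and Itgam were below it, with sums of 293, 521, 338 and 358. Of 4 lymphatic markers Prox1 and Lyve1 were below it, with sums of 5621, 6306, 3495 and 5895, carried mostly by Pdpn. Flt4, a receptor of lymphatic growth factors, stood at 9.18, 8.9, 7.66 and 7.55 and passed as lower than both controls on each hairpin array. Of 4 markers of steroid-making cells 1 was at or above the floor, with sums of 131 to 161. In cultures measured in bulk, fewer cells of a type and less RNA per cell cannot be told apart.

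Of the 46 measured genes, 29 were at or above the floor on all 4 arrays, 3 on some arrays (Nr1h4, Esr1 and Ppargc1a) and 14 on none. Those below the floor throughout were Nr1i2, Nr1i3, Rorb, Ppara, Pparg, Rarb, Rxrg, Thrb, Nr3c2, Esr2, Pgr, Esrrg, Nr2e1 and Nr0b1, with levels from 3.6 to 5.3. Just under the floor by their highest level were Rxrg at 5.3 and Rorb at 5.02, and just over it Nr5a1 at 5.58 and Nr1h3 at 5.62. Of the 32 genes that reached the floor on any array, 8 ranged over at least 1 between their lowest and highest array, which is 25%, against 20.2% of all 12166 genes at that level. The median range was 0.485 over the 32 and 0.55 over all genes. The share of receptors that varied was thus near that of genes in general, and what follows describes which ones varied and where.

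**Figure D1:**
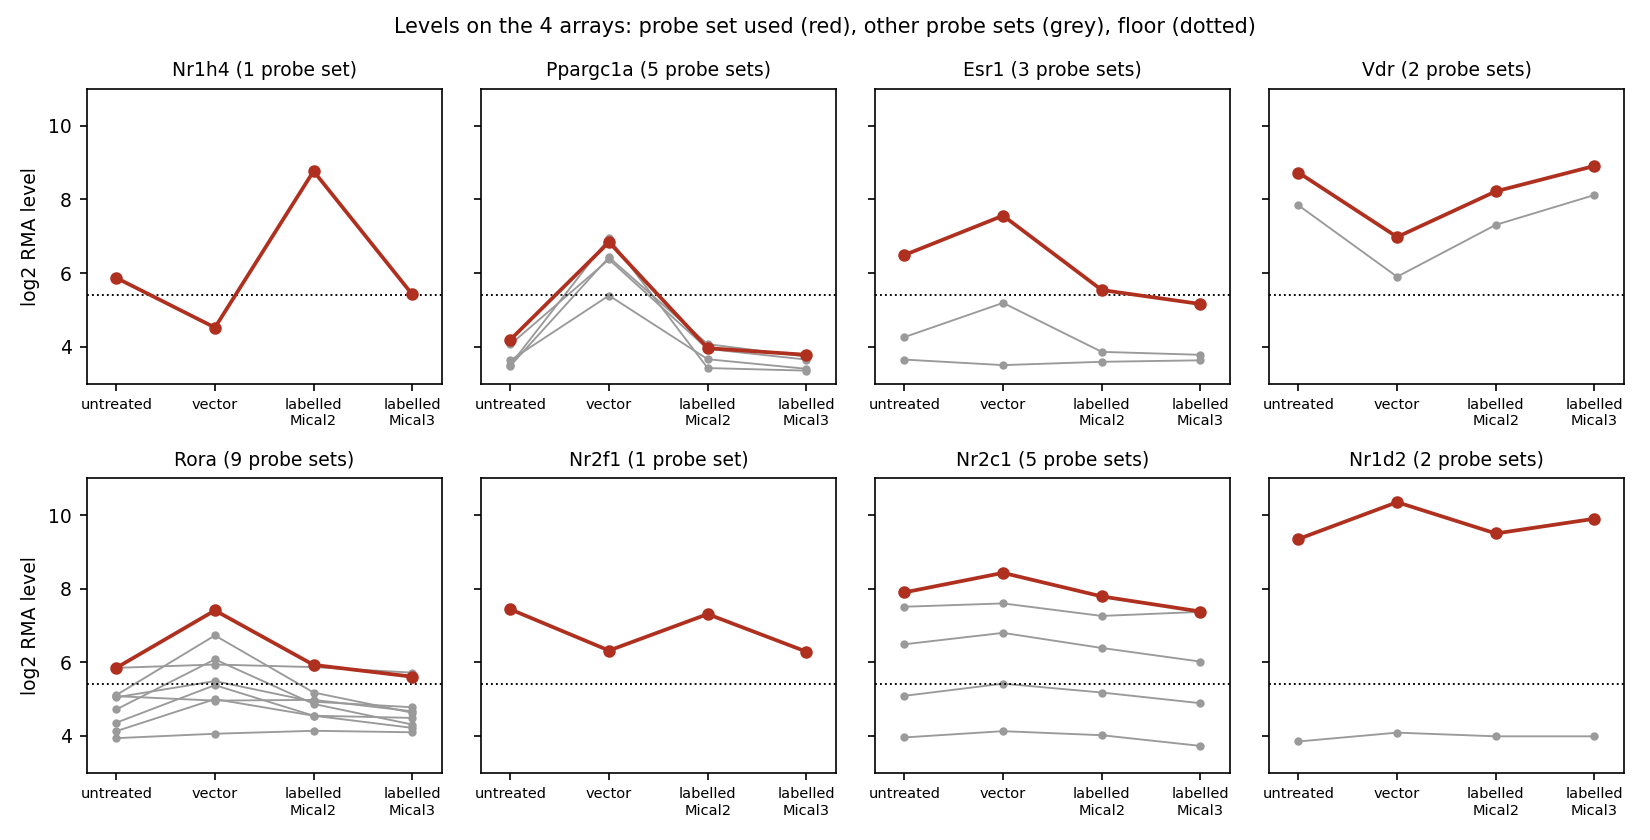
Log2 RMA level (vertical axis) on the 4 arrays (horizontal axis) for the 8 genes with a range of at least 1; red marks the probe set used, grey the gene's other probe sets and the dotted line the floor of 5.41. Nr1h4 peaks at 8.77 on the Mical2-labelled array, and Ppargc1a, Esr1, Rora, Nr2c1 and Nr1d2 have their highest level, and Vdr its lowest, on the vector array.

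Nr1h4 encodes FXR, the bile acid receptor, best known from liver and intestine. It stood at 5.87 on the untreated array, 4.52 on the vector array, 8.77 on the Mical2-labelled array and 5.42 on the Mical3-labelled array. It was high on the Mical2-labelled array alone, and near or under the floor on the other 3. It exceeded the vector array by 4.25, the untreated array by 2.90 and the Mical3-labelled array by 3.35. The level on the vector array lay below the floor, so the first of these is not read as a fold. Its level on the vector array was also 1.35 below that of the untreated array. Of the 32 genes it was the 1 that passed the size rule for the Mical2-labelled array against both controls, where 2.73% of all genes passed (0.977% as higher and 1.75% as lower). The value rests on a single probe set. The 250 bases before its annotated start are shown because this member differed most. They hold 1 copy of AGGTCA, an element that many nuclear receptors bind, read on the opposite strand (capitals). It lies 214 to 209 bases before the start at chr10:89506659-89506908 on the minus strand of GRCm38.p6, from RefSeq.
Nr1h4: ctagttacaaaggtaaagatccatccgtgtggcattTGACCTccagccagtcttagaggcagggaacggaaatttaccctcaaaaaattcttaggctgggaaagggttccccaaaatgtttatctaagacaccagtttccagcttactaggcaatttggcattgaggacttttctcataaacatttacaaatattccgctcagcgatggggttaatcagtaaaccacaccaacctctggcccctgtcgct
Searched on both strands, this element was in the 250 bases before the start of 14% of 32851 annotated promoters and of 16.7% of 66 promoters of 44 genes on the list. A match describes letters and not a bound site.

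The other receptors for bile acids, oxysterols and xenobiotics varied little. Nr1h3, the oxysterol receptor LXR-alpha, stood at 5.62, 5.59, 5.59 and 5.58 on the untreated, vector, Mical2-labelled and Mical3-labelled arrays. Its range of 0.04 was the smallest among the 46 genes. Nr0b2, the corepressor SHP that FXR induces in liver, stood at 5.42, 5.6, 5.71 and 5.75 in that order, close to the floor throughout. Nr1i2 and Nr1i3, the xenobiotic receptors PXR and CAR, were below the floor.

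Genes that FXR regulates in liver and gut were looked up as a group of 15, of which 6 were at or above the floor on any array. Fetub, a secreted protease inhibitor, stood at 4.83 on the untreated, 4.51 on the vector, 7.05 on the Mical2-labelled and 4.98 on the Mical3-labelled array. It passed the rule for the Mical2-labelled array as higher, 1 of the 6 beside 0.977% of all genes. No gene of the group passed it as lower. The bile acid transporter genes did not pass. Abcb11 was below the floor throughout, as was Slc51a, and Slc51b stood between 6.33 and 6.85. Sdc1, a cell-surface proteoglycan, stood at 11.04, 11.04, 11.69 and 10.67. Between the hairpin arrays Sdc1 and Fetub passed as higher on the Mical2-labelled array, 2 of 5 genes beside 3.81% of all genes. Fetub reached the floor on the Mical2-labelled array alone. Of 10 LXR targets at or above the floor, Scd1, a fatty acid desaturase, passed as higher on the Mical2-labelled array (9.62, with 6.74 for vector and 7.71 for untreated cells). Lpl, lipoprotein lipase, passed as lower there and differed more: it stood at 11.91 on the untreated, 11.23 on the vector, 5.35 on the Mical2-labelled and 11.13 on the Mical3-labelled array. Each was 1 of the 10, beside 0.977% of all genes as higher and 1.75% as lower. The median difference of the 10 on the Mical2-labelled array was -0.81 against vector and -0.145 against untreated cells, with 7 lower in each. On the Mical3-labelled array it was -0.19 and -0.235, with 8 lower in each. Srebf1, a regulator of lipid synthesis, passed as higher on the vector array (11.07, with 9.81 for untreated cells), beside 3.26% of all genes. Between the hairpin arrays Mylip and Scd1 passed as higher and Abca1 and Lpl as lower on the Mical2-labelled array. The shares of all genes were 3.81% and 3.72%. Mylip stood at 7.74 and 5.78, and Abca1, a cholesterol exporter, at 6.46 and 7.86, on the Mical2-labelled and Mical3-labelled arrays. Of 7 hepatocyte markers, Alb, Ahsg and Fgb were below the floor throughout. The summed level was 294 on the untreated, 275 on the vector, 308 on the Mical2-labelled and 287 on the Mical3-labelled array. None of these markers passed the rule in any comparison. The 4 markers that reached the floor were all higher on the Mical2-labelled than on the vector array, with a median difference of 0.2. Against the untreated array 3 were higher and 1 lower, with a median of 0.115. Against the Mical3-labelled array 3 were higher and 1 lower, with a median of 0.295. Tat reached the floor on the Mical2-labelled array alone, at 5.41, so its direction was partly set by the floor. Of those below the floor, Alb and Fgb were also higher on the Mical2-labelled than on the vector array, and Ahsg was lower (4.90, with 5.14 for vector). The part of these markers in the Nr1h4 result was not tested.

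Most of the variation in the family lay on the vector array. The list was chosen with earlier results of these data known, so the shares that follow describe its genes and test nothing about the family. Against the untreated array, 7 of 32 genes passed the size rule, or 21.9%, where 5.83% of all genes passed. The ones higher on the vector array were Ppargc1a, Rora, Esr1 and Nr1d2, 4 of 32 beside 3.26% of all genes. The ones lower were Vdr, Nr1h4 and Nr2f1, 3 of 32 beside 2.57%. Among the 29 at or above the floor on all 4 arrays, Rora, Nr1d2, Vdr and Nr2f1 passed, 4 genes beside 4.64% of all genes selected in the same way. Under that stricter floor no listed gene passed for the Mical2-labelled array (1.89% of all genes) or the Mical3-labelled array (2.91%). Between the hairpin arrays 1 passed (6.03%), and 5 had a range of at least 1 (18.2%). Over all genes with a range of at least 1, the vector array lay farthest from the median of the other 3 in 42%, and among the 8 listed genes it did so in 6. The Mical2-labelled array did so in 21.8% of all genes and for Nr1h4, the untreated array in 5.61% and for Nr2f1, and the Mical3-labelled array in 30.4% and for no listed gene. Without the vector array the count of genes with a range of at least 1 went from 8 to 3 (Nr1h4, Esr1 and Nr2f1), beside 10.5% of all genes. It was 7 without the untreated array (18.5% of all genes), 8 without the Mical2-labelled array (14.7%) and 7 without the Mical3-labelled array (13.1%). The 7 became 4 when a gene's probe sets were averaged and 2 at 3-fold. Fibroblast, smooth muscle and epithelial markers were lower and leukocyte markers higher in sum on this same array, and their part in these differences was not tested. All 6 fibroblast markers that reached the floor passed as lower there. The smooth muscle sum was carried mostly by Acta2 (13.67 to 11.61, untreated to vector), while Des stood at 6.58 and 6.74. The leukocyte sum was carried mostly by Cd68 (5.93 and 8.0), while Ptprc stayed below the floor.

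**Figure D2:**
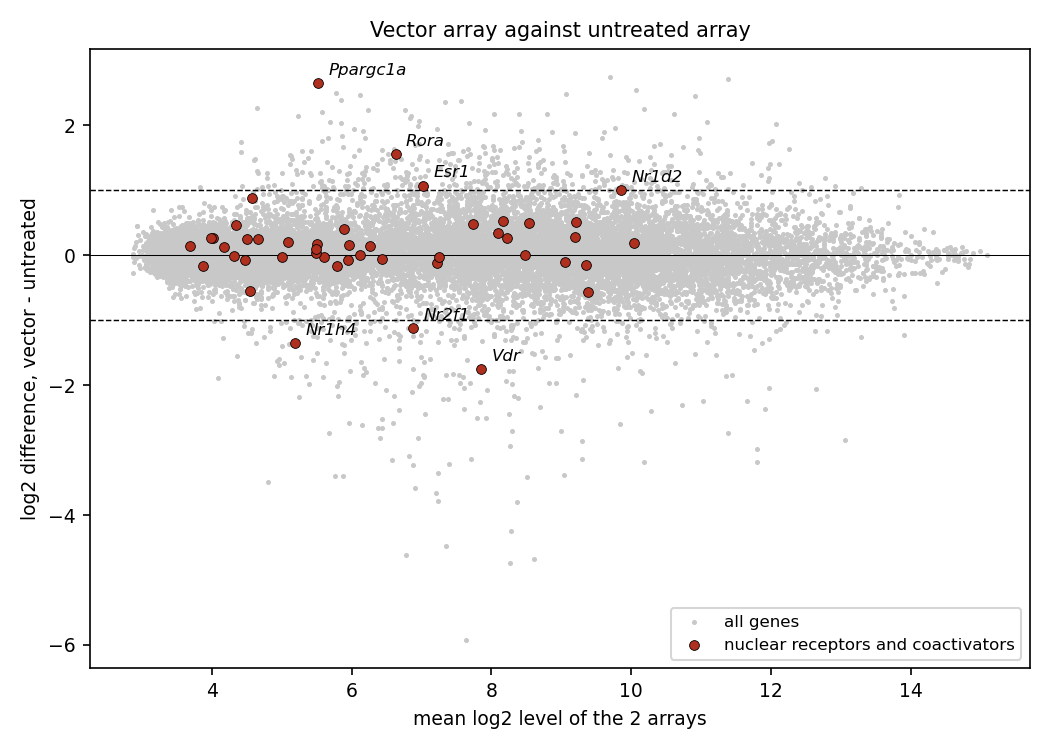
Log2 difference of the vector array from the untreated array (vertical axis) against the mean log2 level of the 2 arrays (horizontal axis), with all 18193 genes in grey and the 46 receptor and coactivator genes in red; dashed lines mark a difference of 1. Ppargc1a lies at 2.65 and Vdr at -1.75, and most of the red points lie between the dashed lines.

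Ppargc1a encodes PGC1-alpha, the inducible coactivator that drives mitochondrial biogenesis and fatty acid oxidation in muscle, brown fat and liver. It stood at 4.19 on the untreated array, 6.84 on the vector array, 3.96 on the Mical2-labelled array and 3.78 on the Mical3-labelled array. The vector array was above the floor and the other 3 were below it. The vector array exceeded the untreated array by 2.65, the Mical2-labelled array by 2.88 and the Mical3-labelled array by 3.06. All 5 probe sets had this pattern, with differences of the vector from the untreated array between 1.76 and 3.44, and differences of the Mical3-labelled from the untreated array between -0.41 and 0.25. Its promoter is shown because this coactivator is known to be induced through cyclic AMP and the factor CREB, which binds elements with the core TGACG. The core was found once in the 250 bases before the annotated start, read on the opposite strand (capitals), 49 to 45 bases before it at chr5:51567726-51567975 on the minus strand.
Ppargc1a: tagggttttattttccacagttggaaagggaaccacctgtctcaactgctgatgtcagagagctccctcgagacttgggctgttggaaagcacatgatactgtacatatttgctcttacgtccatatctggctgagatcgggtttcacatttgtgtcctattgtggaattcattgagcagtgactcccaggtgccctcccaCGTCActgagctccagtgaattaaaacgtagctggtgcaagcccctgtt
The same core was in 17.8% of all annotated promoters, on either strand.

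The related coactivator gene Ppargc1b, Nrip1, Esrra and Esrrb did not pass the size rule in any comparison. Ppargc1b, which encodes the related PGC1-beta, stood at 7.26, 7.24, 7.47 and 8.03 on the untreated, vector, Mical2-labelled and Mical3-labelled arrays. It was highest on the Mical3-labelled array, by 0.77 over the untreated array, which is under the 2-fold rule. Nrip1, encoding RIP140, stood at 8.09, 8.35, 7.99 and 7.73, a range of 0.62. Its 6 probe sets did not share a direction. Differences of the vector from the untreated array ran from -0.09 to 0.39, with 4 of the 6 below 0. Esrra, encoding ERR-alpha, through which PGC1-alpha acts on mitochondrial genes, stood at 9.10, 9.0, 9.11 and 9.30. Esrrb had a range of 0.21. Of 16 mitochondrial genes known as PGC1 and ERR targets, such as Tfam, Cycs and Cs, none passed the rule in any of the 4 comparisons between groups. Their median difference of the vector from the untreated array was 0.02, against 0.03 over all genes, with 8 higher and 8 lower. Idh3a, a subunit of isocitrate dehydrogenase, had the widest range, at 11.12 on the untreated, 10.57 on the vector, 11.23 on the Mical2-labelled and 11.62 on the Mical3-labelled array.

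Of the Rev-erb and ROR receptors, Rora and Nr1d2 stood highest on the vector array. Rora encodes an activator, and Nr1d1 and Nr1d2 encode the Rev-erb repressors, which compete with it for the same DNA element in the circadian clock. Rora stood at 5.85 on the untreated, 7.41 on the vector, 5.93 on the Mical2-labelled and 5.61 on the Mical3-labelled array. The vector array stood apart and the other 3 lay within 0.32 of each other. Of its 9 probe sets, 8 were higher on the vector than on the untreated array, 4 of them by at least 1, and the mean over the 9 gave a difference of 0.77, under the rule. Nr1d2 stood at 9.35, 10.35, 9.50 and 9.90 in the same order. Its difference of 1.0 lay exactly at the threshold, and its other probe set was below the floor throughout. Nr1d1 stood at 5.48, 5.51, 5.82 and 5.48, near the floor on all 4 arrays. The promoter of Nr1d2 is shown because Rev-erb and ROR receptors bind AGGTCA elements and so can act on their own family. The element (capitals) lies 77 to 72 bases before the start at chr14:18239107-18239356 on the minus strand.
Nr1d2: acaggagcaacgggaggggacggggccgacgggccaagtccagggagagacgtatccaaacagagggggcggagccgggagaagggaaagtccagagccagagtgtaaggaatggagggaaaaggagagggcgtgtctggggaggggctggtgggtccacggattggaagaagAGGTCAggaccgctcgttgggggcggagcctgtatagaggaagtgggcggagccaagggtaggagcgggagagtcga
The element was not in the 250 bases used for Rora, which says only that these letters are absent from that window.

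Among 15 other clock genes, 13 were at or above the floor, and 11 of those were higher on the vector than on the untreated array. The median difference was 0.40 beside 0.03 over all genes. Against the untreated array the Mical2-labelled array had a median of 0.13, with 10 higher and 3 lower, beside -0.03 over all genes. The Mical3-labelled array had 0.21, with 9 higher and 4 lower, beside 0.01. As higher on the vector array the rule was passed by 2 of the 13, beside 3.26% of all genes. These were Dbp, a clock output factor, and Ciart, a clock repressor. Dbp stood at 7.56 on the untreated, 8.85 on the vector, 7.55 on the Mical2-labelled and 6.44 on the Mical3-labelled array. It was highest on the vector array and lowest on the Mical3-labelled array. On the latter it passed as lower than both controls, 1 of the 13 beside 2.49% of all genes. Ciart stood at 6.75, 7.85, 7.03 and 6.81. Arntl, which encodes the central activator BMAL1, stood at 7.22, 7.32, 7.0 and 7.11, and Clock at 9.41, 9.30, 9.66 and 9.89.

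Vdr encodes the vitamin D receptor. It stood at 8.73 on the untreated array, 6.98 on the vector array, 8.22 on the Mical2-labelled array and 8.91 on the Mical3-labelled array. The vector array was low and the other 3 lay within 0.69 of each other. The second probe set gave 7.84, 5.90, 7.31 and 8.12, the same order. The vector array was lower than the untreated array by both probe sets, with differences of -1.75 and -1.94. Cyp24a1, the vitamin D hydroxylase that Vdr induces, was below the floor on all 4 arrays. The thyroid hormone receptor gene Thra stood at 8.29, 8.78, 8.03 and 7.81, a range of 0.97 that fell just short of the rule. Its 3 probe sets were all higher on the vector than on the untreated array, by 0.03 to 0.49. Thrb was below the floor. Of 4 thyroid and vitamin D genes at or above the floor, Klf9, a hormone-induced Krüppel-like factor, passed as higher on the vector array (11.63, with 10.58 on the untreated, 10.59 on the Mical2-labelled and 11.21 on the Mical3-labelled array). That call was lost when probe sets were averaged, and 3.26% of all genes passed as higher there.

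Among the steroid receptors Esr1 varied most. It encodes oestrogen receptor alpha, which mediates much of the action of oestrogen on endothelium. It stood at 6.49 on the untreated, 7.56 on the vector, 5.54 on the Mical2-labelled and 5.16 on the Mical3-labelled array. Both hairpin arrays were lower than both controls, and the Mical3-labelled array was below the floor. The Mical3-labelled array differed by -2.40 from vector and by -1.33 from untreated cells, and Esr1 was the 1 gene of 32 that passed the rule there, where 3.87% of all genes passed (2.49% as lower and 1.38% as higher). The Mical2-labelled array differed by -2.02 and -0.95, the latter short of the rule. The 2 hairpin comparisons share both control arrays and are not independent. A second probe set stayed below the floor (4.26, 5.19, 3.86 and 3.78 in the same order), and the remaining one lay between 3.50 and 3.65. The mean over the 3 differed by -0.61 from the nearer control on the Mical3-labelled array, which ends the call.

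Of 9 oestrogen-responsive genes at or above the floor, Ccn5 and Ccnd1 passed as lower on the vector array, where Esr1 was highest. The share of all genes was 2.57%. Ccnd1, cyclin D1, stood at 10.20 on the untreated, 9.03 on the vector, 10.66 on the Mical2-labelled and 10.16 on the Mical3-labelled array. On the Mical3-labelled array Gata3, a zinc finger factor, passed as higher (7.92, with 6.57 for vector and 6.64 for untreated cells). The chemokine gene Cxcl12 passed as lower. Each was 1 of the 9, beside 1.38% and 2.49% of all genes. Greb1, an oestrogen-induced cofactor, stood between 5.73 and 5.92. Of the nuclear receptors outside the list, Hnf4g was below the floor. The progesterone receptor gene Pgr and Esr2 were below the floor on every array.

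Nr3c1 encodes the glucocorticoid receptor and stood at 8.96, 9.47, 9.72 and 9.23 on the untreated, vector, Mical2-labelled and Mical3-labelled arrays. It was highest on the Mical2-labelled array, by 0.76 over the untreated and 0.25 over the vector array, and did not pass the rule. Its 6 probe sets were all higher on the Mical2-labelled than on the vector array, by 0.01 to 0.34. The mineralocorticoid receptor gene Nr3c2 was below the floor. Of 16 glucocorticoid-responsive genes, 3 passed as higher and none as lower on the vector array, and 1 as higher and 4 as lower on the Mical3-labelled array. Over all genes 3.26% passed as higher and 2.57% as lower for vector against untreated cells, with 1.38% and 2.49% for the Mical3-labelled array. Tsc22d3, which encodes the anti-inflammatory protein GILZ, stood at 8.44 on the untreated, 9.71 on the vector, 8.12 on the Mical2-labelled and 7.32 on the Mical3-labelled array, so it passed in both comparisons. Mt2, a metallothionein, stood at 12.66, 12.35, 13.22 and 9.50, low on the Mical3-labelled array, and Mt1 and Ddit4 also passed as lower there. Klf9 and Lcn2 passed as higher on the vector array, Lcn2 at 8.2 with 6.25 for untreated cells. Between the hairpin arrays Sgk1, Mt1, Mt2 and Ddit4 passed as higher and Dusp1 as lower on the Mical2-labelled array. The shares of all genes were 3.81% as higher and 3.72% as lower. Dusp1, a phosphatase of MAP kinases, was the 1 that passed as higher on the Mical3-labelled array against both controls. Fkbp5, a standard readout of the receptor, stood at 9.71, 9.20, 9.57 and 10.20. The group's median difference of the vector from the untreated array was 0.015 and that of the Mical3-labelled array from the vector array -0.375, against 0.03 and -0.03 over all genes.

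Of the COUP-TF receptors, a group of orphan receptors, Nr2f1 passed the size rule and Nr2f2 and Nr2f6 did not. Nr2f1, COUP-TFI, stood at 7.44 on the untreated, 6.32 on the vector, 7.31 on the Mical2-labelled and 6.29 on the Mical3-labelled array. The vector and Mical3-labelled arrays were low and the other 2 high. With 1.02 between the hairpin arrays, Nr2f1 and Nr1h4 were the 2 of 31 genes that passed there, both higher on the Mical2-labelled array, beside 7.53% of all genes (3.81% in this direction and 3.72% in the other). It is read by a single probe set. Nr2f2, COUP-TFII, stood at 9.66, 9.09, 9.76 and 9.44, and all 6 of its probe sets were lower on the vector than on the untreated array, by 0.05 to 0.61. The testicular receptor gene Nr2c1 stood at 7.90, 8.43, 7.79 and 7.38, with its highest level on the vector and its lowest on the Mical3-labelled array. Its 5 probe sets shared that direction with differences of -0.23 to -1.05. Nr2c2, Nr2f6 and Hnf4a had ranges of 0.66, 0.46 and 0.20.

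The PPAR receptors sense fatty acids. Ppard stood at 7.28, 7.16, 7.33 and 7.41 on the untreated, vector, Mical2-labelled and Mical3-labelled arrays, while Ppara and Pparg were below the floor. Some PPAR target genes passed the rule. As lower on the Mical3-labelled array these were 3 of 15 at or above the floor, beside 2.49% of all genes. On the Mical2-labelled array 1 of 14 passed as higher and 1 as lower, beside 0.977% and 1.75%. On the vector array 1 of 14 passed as higher, beside 3.26%. Of 21 measured, Vnn1, a pantetheinase, stood at 10.53 on the untreated, 9.89 on the vector, 12.52 on the Mical2-labelled and 7.03 on the Mical3-labelled array. It was the highest on the Mical2-labelled array and the lowest on the Mical3-labelled array, and passed the rule in both. Fgf21 and Acot1 also passed as lower on the Mical3-labelled array. Slc25a20, the carnitine carrier, passed as lower on the Mical2-labelled array, and Acot2, an acyl-CoA thioesterase, as higher on the vector array (11.22, with 9.84 on the untreated array). Pdk4 and Cd36 were below the floor, and Angptl4 stood between 6.02 and 6.67. Adipocyte markers were at low levels, with 1 of 5 at or above the floor.

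**Figure D3:**
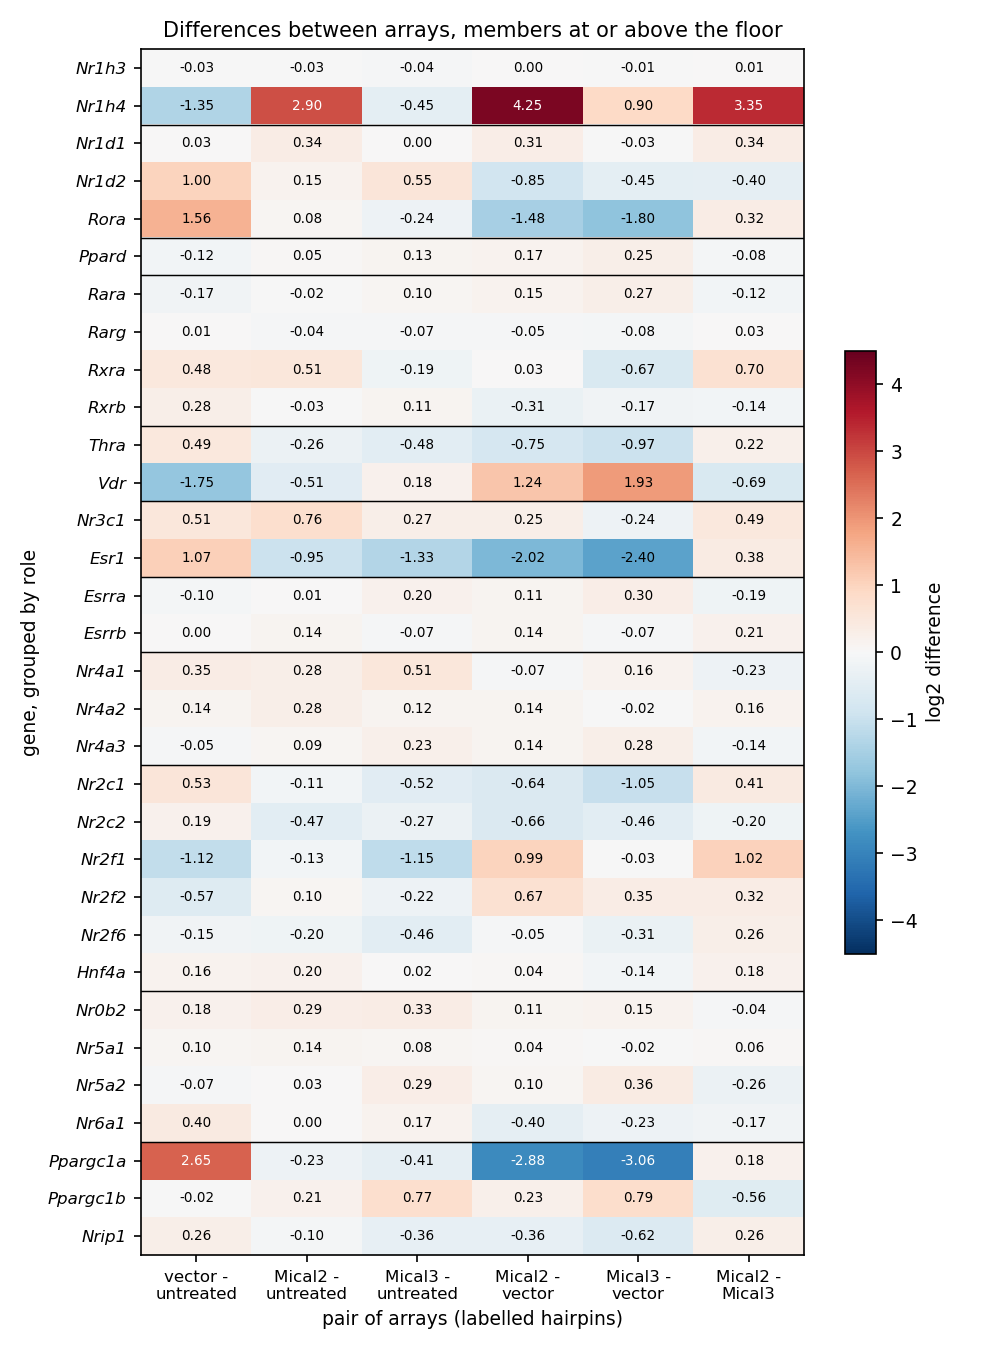
Log2 differences between pairs of arrays (columns, first minus second, hairpin arrays by label) for the 32 genes at or above the floor on any array (rows, grouped by role), with colour from blue (lower) to red (higher) and the value in each cell. The strong colours are confined to a few rows, led by Nr1h4 at 4.25 and Ppargc1a at -3.06, while rows such as Rarg and Nr1h3 are nearly white.

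The retinoid receptors, which mediate the action of retinoic acid, varied little. Rarg stood at 8.48, 8.49, 8.44 and 8.41 and Rara at 5.88, 5.71, 5.86 and 5.98 on the untreated, vector, Mical2-labelled and Mical3-labelled arrays. Rxrb, a shared partner of many receptors, stood at 9.05, 9.33, 9.02 and 9.16. Rxra had the widest range of this group, 0.70, with 7.50 and 7.31 on the untreated and Mical3-labelled arrays and 7.98 and 8.01 on the vector and Mical2-labelled arrays. Of 13 measured genes of retinoic acid metabolism and response, Aldh1a1, a retinaldehyde dehydrogenase, differed most. It stood at 11.88 on the untreated, 9.57 on the vector, 11.68 on the Mical2-labelled and 13.36 on the Mical3-labelled array, and passed as lower on the vector and as higher on the Mical3-labelled array. Tgm2, a transglutaminase that retinoic acid induces, passed as lower on the vector array (5.75, with 6.79 on the untreated array). Aldh1a1 and Tgm2 were 2 of 7 genes at or above the floor there, beside 2.57% of all genes. For the Mical3-labelled array it was 1 of 7 as higher, beside 1.38%. Rdh10, a retinol dehydrogenase, passed between the hairpin arrays, at 8.84 on the Mical2-labelled and 7.82 on the Mical3-labelled array. Of 8 genes 1 passed there as higher and 1, Aldh1a1, as lower, beside 3.81% and 3.72% of all genes.

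The NR4A receptors are orphan receptors induced within minutes to hours by growth factors and stress. Nr4a1 stood at 7.92, 8.27, 8.20 and 8.43 on the untreated, vector, Mical2-labelled and Mical3-labelled arrays. Nr4a2 had a range of 0.28 by the probe set used, but its 6 probe sets did not share a direction. Differences of the vector from the untreated array ran from -0.68 to 0.14. Another of its probe sets read 6.43, 5.82, 5.23 and 5.49, a range of 1.2, with the untreated array highest. Nr4a3 also had a range of 0.28. The gonadal and embryonic receptors Nr5a1, Nr5a2 and Nr6a1 had ranges of 0.14, 0.36 and 0.40, all near the floor.

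The general coregulators were measured as a group of 27, of which 26 were at or above the floor. They include the p160 coactivators Ncoa1 to Ncoa3, the Mediator subunit Med1, the acetyltransferases Crebbp and Ep300 and the deacetylase Hdac3. Nsd1, a histone methyltransferase that binds nuclear receptors, passed as lower on the Mical2-labelled array (7.12, with 8.30 for vector and 8.30 for untreated cells). Kat2b, an acetyltransferase also known as PCAF, passed between the hairpin arrays, at 10.27 on the Mical2-labelled and 11.28 on the Mical3-labelled array. Each was 1 of the 26 as lower, beside 1.75% and 3.72% of all genes. Neither call held when a gene's probe sets were averaged, which left 0 of the coregulators. No coregulator passed on the vector array against the untreated array or on the Mical3-labelled array against both controls. On the Mical2-labelled array the group's median difference was -0.31 against vector and -0.35 against untreated cells, beside -0.04 and -0.03 over all genes. Ncoa1 stood at 8.15, 9.05, 7.53 and 7.91 and Gps2, a subunit of the corepressor complex, at 7.70, 8.30, 7.01 and 7.70 on the untreated, vector, Mical2-labelled and Mical3-labelled arrays. Both were highest on the vector array and lowest on the Mical2-labelled array.

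**Figure D4:**
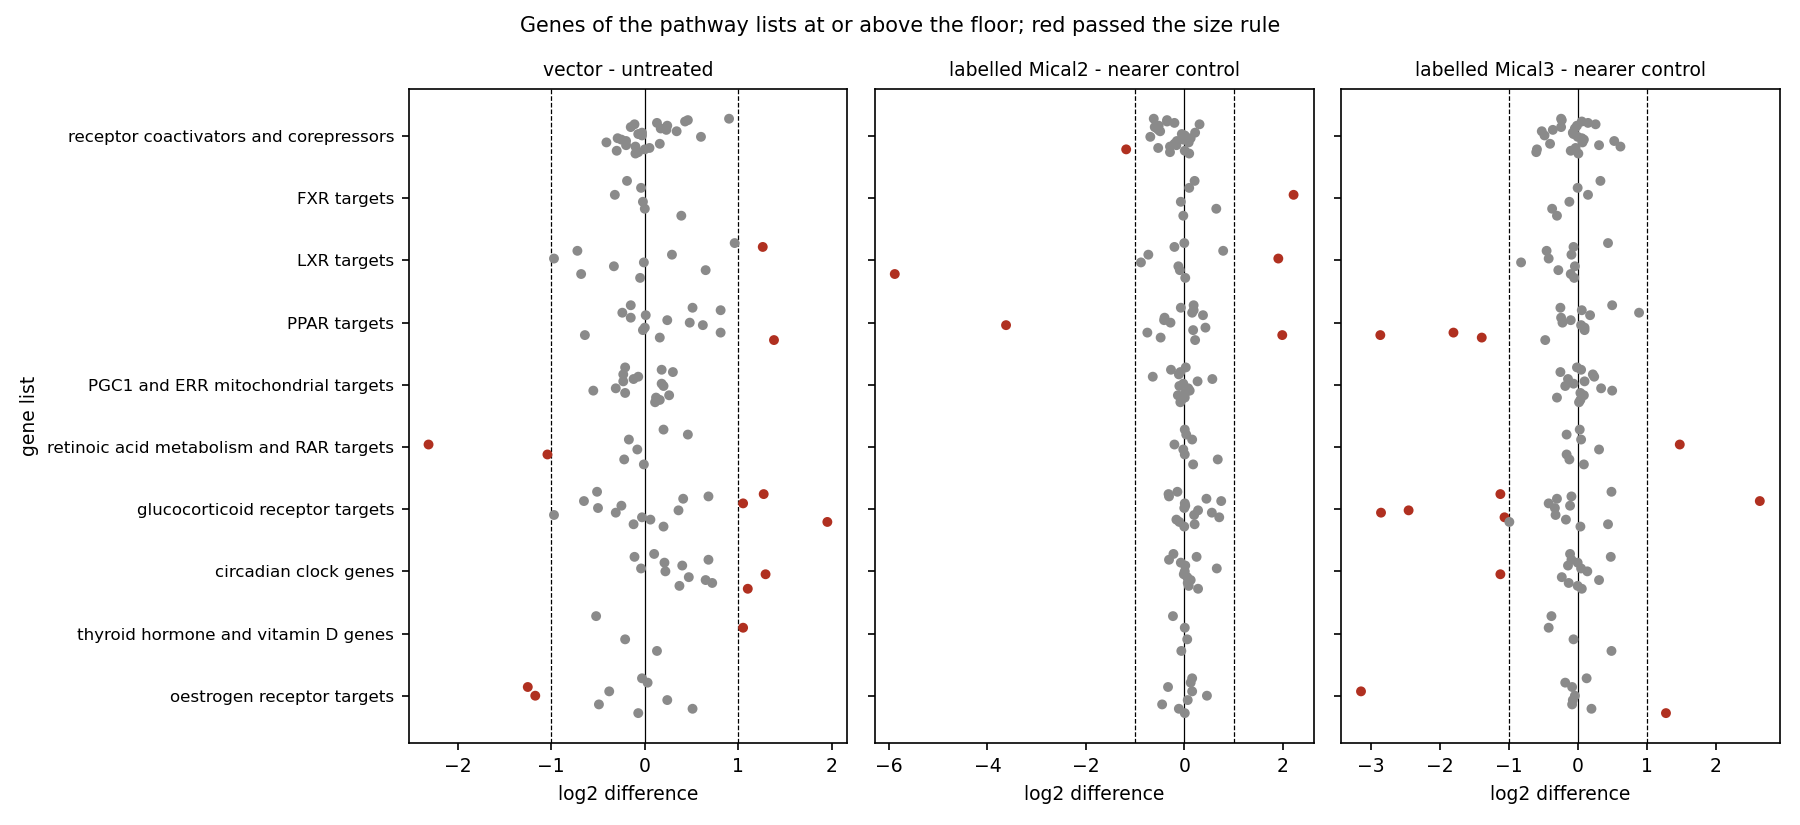
Log2 differences (horizontal axes) for genes of 10 pathway lists (rows) at or above the floor: the vector minus the untreated array on the left, and each labelled hairpin array minus the control nearer to it in the other panels. Red points passed the size rule; the mitochondrial list has none in any panel and the coregulator list has 1, in the Mical2 panel.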

How the data were processed

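Total RNA from the 4 groups was hybridised as biotin-labelled RNA to 3' expression arrays, 1 per group. Each array held a pool of 3 biological replicates per the labels. The authors deposited log2 levels of 45101 probe sets, made with RMA (background correction, quantile normalization and probe set summary) per the submitters' processing notes; the sources used here give no version or settings. Array medians lay between 5.40 and 5.44. No further scaling was applied.

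Of these, 34945 probe sets with exactly 1 symbol were used, updated through Entrez identifiers against RefSeq for GRCm38.p6. The probe set with the highest mean represented a gene. The floor was the median of the table, 5.41. The number of arrays limits the precision. With 1 array per group, calls were by size, and how often the size rule errs on these arrays was not tested. The members, the 11 pathway lists, the 9 marker lists and the rules were chosen with earlier results of these data known. Every member is accounted for; of a pathway list, genes that passed in any comparison could be named, and otherwise up to 3 with the widest range, and a few textbook targets were named for reference after their values were seen. Of 48 genes, 44 had a promoter entry in the RefSeq table. Alternatives were other controls, folds, floors, probe set rules and scalings. Python 3.11.15, numpy 2.4.6, pandas 2.3.3 and matplotlib 3.10.9 were used.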

Additional observations from a re-analysis of the deposited data

How the results depend on the processing

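No paired analysis was possible because each group had 1 array. No named difference of a listed gene reversed under any alternative run. Of 177 outcomes 141 stayed past the rule and 36 did not. Many of these were fixed in advance. A lower fold or no floor cannot lose a call, and other folds and floors leave the difference itself unchanged. A range cannot reverse, and Nr1h4 and Nr2f1 have a single probe set, so probe set rules cannot move them. The tally is therefore not a measure of robustness. Counts of listed genes that passed were as follows. For the Mical2-labelled array against both controls the count was 1. It was 5 against the vector array alone, 3 against the mean of the controls, 2 at 1.5-fold and 0 when the floor was required on all 4 arrays. For the Mical3-labelled array it was 1. It was 5 against the vector array alone, 2 against the untreated array alone and 4 against their mean, 2 at 1.5-fold, and 0 at 3-fold, at a floor at the 75th percentile, with probe sets averaged and with the floor required on all 4 arrays. For the vector against the untreated array it was 7. It was 2 at 3-fold and at the higher floor, 4 with the mean of probe sets and with the floor on all 4 arrays, and 3 with 16 added on the linear scale. Between the hairpin arrays it was 2. It was 4 at 1.5-fold, and 1 at 3-fold, at the higher floor, with 16 added and with the floor on all 4 arrays. For the range it was 8. It was 15 at 1.5-fold, 5 at 3-fold, 4 at the higher floor, 5 with the mean of probe sets, 5 with the floor on all 4 arrays, and 3 to 8 when 1 array was left out, 3 without the vector array. Over all genes the counts moved too: from 329 to 1286 (Mical2-labelled) and from 465 to 1402 (Mical3-labelled) against the vector array alone, and from 691 to 2084 and 195 (vector against untreated) at 1.5-fold and 3-fold. The floor on all arrays and leaving out an array were chosen after seeing the data. The cause of these changes was not tested beyond the smaller set of genes that a higher floor or fold allows. Low signal limits Nr1h4, Esr1 and Ppargc1a, which were below the floor on at least 1 array.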
